A study of Mus musculus and Rattus norvegicus with 32 samples.

Results

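The genes described here are the MEF2 transcription factors Mef2a, Mef2c and Mef2d, the serum response factor Srf with its cofactor Myocd (myocardin), and the class IIa histone deacetylases Hdac4, Hdac5, Hdac7 and Hdac9. They were chosen by gene symbol, as 9 of the 55487 genes listed in each mouse table and 9 of the 32883 genes listed in the rat table, and all 9 passed the filter on low counts in all 4 tables. RNA sequencing of 32 libraries compared METTL5, an enzyme that places an m6A methyl mark on 18S ribosomal RNA, between 8 groups of 4 libraries. The mouse tables held C57BL/6 hearts, with littermates as controls. At 1 month of age the groups were labelled Ctrl and Mettl5-KO (Ctrl_1mo and METTL5-KO_1mo), the latter from knockout mice. At 3 months they were labelled Ctrl and Mettl5-cKO (Ctrl_3mo and METTL5-cKO_3mo), and 4 weeks after transverse aortic constriction (TAC), a banding of the aorta that overloads the left ventricle, they were Ctrl_TAC and METTL5-cKO_TAC, also labelled as 3 months old. The METTL5-cKO mice carried Mettl5 fl/fl with exons 2 to 4 floxed and Cre driven by the Myh6 promoter, a promoter of heart muscle cells, so the other cells of these hearts keep the gene. The fourth table held cultured neonatal rat ventricular myocytes (NRVMs) from Sprague Dawley rats at postnatal day 2, pre-plated to take out fibroblasts, infected with adenovirus carrying GFP (AdGFP) or human METTL5 (AdMETTL5), and all given 20 μM phenylephrine (PE), an adrenergic agonist that makes these cells grow, for 24 h.

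MEF2 proteins and SRF belong to the same MADS-box family of DNA-binding proteins, which sit at promoters and enhancers of muscle genes. Class IIa histone deacetylases bind MEF2 directly and repress its targets in the nucleus, and when kinases phosphorylate them, 14-3-3 proteins bind them and carry them out to the cytoplasm, which frees MEF2. This export is a known step of the growth response of heart muscle to pressure and adrenergic signals, and SRF, with myocardin as its partner, drives contractile and immediate-early genes in the same response. These steps act largely on proteins already made, and the data here report RNA levels only.

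The promoters of members are shown first where they hold the letters that a member's own family of proteins is known to bind. Promoter windows of RefSeq on GRCm38.p6, from 250 bases before to 50 bases after the start, were found for 8 of the 9 members, all except Myocd. Each was searched on both strands for the CArG box, the motif of SRF, and for the MEF2 site, both 10 letters long and not overlapping each other in any of these windows. Of all 32851 promoter windows, 1.629% held a CArG box and 3.187% a MEF2 site. The Srf window held 2 CArG boxes, which begin 82 and 62 bases before the start. The Mef2a and Hdac5 windows held 1 MEF2 site each, which begin 2 and 20 bases before the start, so that of Mef2a runs across it. Neither motif was in the windows of Mef2c, Mef2d, Hdac4, Hdac7 or Hdac9. Capitals mark the matches, which are letters only and no measured binding.
Srf promoter, chr17:46556113-46556412, minus strand: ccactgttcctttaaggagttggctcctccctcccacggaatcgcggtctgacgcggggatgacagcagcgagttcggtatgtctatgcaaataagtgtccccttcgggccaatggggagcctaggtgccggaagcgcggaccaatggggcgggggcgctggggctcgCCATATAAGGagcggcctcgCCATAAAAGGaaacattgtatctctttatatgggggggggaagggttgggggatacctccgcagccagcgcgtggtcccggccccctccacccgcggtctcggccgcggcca
Mef2a promoter, chr7:67372809-67373108, minus strand: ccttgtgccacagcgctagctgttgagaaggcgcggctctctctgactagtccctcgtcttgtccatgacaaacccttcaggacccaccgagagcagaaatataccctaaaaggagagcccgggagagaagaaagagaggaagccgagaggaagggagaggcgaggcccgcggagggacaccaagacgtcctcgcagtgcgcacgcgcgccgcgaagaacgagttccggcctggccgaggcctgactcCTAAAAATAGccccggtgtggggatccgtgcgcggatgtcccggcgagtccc
Hdac5 promoter, chr11:102230123-102230422, minus strand: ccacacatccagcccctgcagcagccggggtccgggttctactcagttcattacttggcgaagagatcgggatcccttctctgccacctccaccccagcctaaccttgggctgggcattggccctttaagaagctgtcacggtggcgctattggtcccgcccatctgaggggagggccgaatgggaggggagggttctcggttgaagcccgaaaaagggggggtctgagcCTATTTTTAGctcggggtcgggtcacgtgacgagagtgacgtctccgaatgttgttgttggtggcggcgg

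The MEF2 members are close paralogs, and the opening of their coding sequence, which encodes the MADS box, shows how alike they are. The first 90 coding bases of the GENCODE vM21 transcripts Mef2a-208, Mef2c-202 and Mef2d-203 are given below, with capitals where a base differs from Mef2a. Mef2c matched Mef2a at 82.2% of these bases and Mef2d at 76.7%. Over all annotated transcripts the longest exact run shared by a pair was 17 bases for Mef2a and Mef2c, 16 for Mef2a and Mef2d and 28 for Mef2c and Mef2d, and among the class IIa deacetylases the runs were between 16 and 36 bases.
Mef2a: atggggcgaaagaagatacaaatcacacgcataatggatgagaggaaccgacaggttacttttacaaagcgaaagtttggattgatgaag
Mef2c: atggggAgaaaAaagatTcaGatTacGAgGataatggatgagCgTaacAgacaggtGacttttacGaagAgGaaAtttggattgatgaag
Mef2d: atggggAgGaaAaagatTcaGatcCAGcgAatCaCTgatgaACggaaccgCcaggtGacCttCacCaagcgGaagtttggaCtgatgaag

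On GRCm38, Mef2a lies at chr7:67231163-67372858, Mef2c at chr13:83504034-83667080, Mef2d at chr3:88142372-88172086, Srf at chr17:46548329-46556175 and Myocd at chr11:65176561-65269989. The deacetylases Hdac4 at chr1:91928779-92195699, Hdac5 at chr11:102194432-102230166, Hdac7 at chr15:97792664-97844502 and Hdac9 at chr12:34047580-34917095 complete the list. Mef2c and Myocd overlap no other annotated gene. Lysmd4 lies on the other strand of Mef2a, 1700113A16Rik of Mef2d, Gm26904 of Srf, Gm37048 and Gm26720 of Hdac4, Slc48a1 of Hdac7 and Gm24429 of Hdac9, and small or predicted genes share the strand of Mef2a, Srf, Hdac4, Hdac5 and Hdac9. These overlaps are of whole gene spans, and whether exons overlap was not examined. Whether the counting used strand is not given in the sources used here, so whether reads of such pairs were kept apart is not known.

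Library totals ran from 19899033 to 21804907 in the hearts, from 17344430 to 18085339 in AdGFP and from 14324700 to 14642431 in AdMETTL5, so in the NRVMs depth differed with the group. All levels below are CPM, the count of a gene scaled to a common library total, after TMM scaling within a table, as mean ± SD with n = 4 unless each library is given, and a call is an adjusted p under 0.05 in edgeR's quasi-likelihood test over all genes of the table. The p-values measure the spread between these libraries, since the labels do not say that each is a separate animal or culture. The Mettl5 row did not separate the genotypes in the hearts, with 5.97 ± 0.807 against 5.12 ± 0.665 CPM at 1 month, 6.51 ± 0.731 against 7.36 ± 0.554 at 3 months and 6.59 ± 0.764 against 6.75 ± 0.752 after TAC. It counts the whole gene and not only the exons floxed in the METTL5-cKO mice, so it does not check the genotype of those hearts. Why the row was not lower in METTL5-KO_1mo, whose mice are not described as floxed, was not tested. All heart groups are therefore named by their labels. In the NRVMs rat Mettl5 was 21.2 ± 1.76 CPM with AdMETTL5 and 17.0 ± 0.774 with AdGFP (adjusted p = 0.00295), although the virus carried the human coding sequence.

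All 9 genes were detected in every heart library, at very different levels. Per kilobase of merged exon, over all 24 heart libraries scaled together, Mef2d stood at 17.5 ± 2.52 CPM per kb and Srf at 14.3 ± 3.78, which overlap within their SDs. Hdac7 followed at 8.42 ± 1.95, then Mef2a at 6.28 ± 1.28 and Hdac5 at 6.02 ± 0.727, and these neighbours also overlap. Myocd (2.47 ± 0.876) and Mef2c (2.18 ± 0.466) formed the next pair, below Hdac5 by more than their SDs, and Hdac4 (0.912 ± 0.191) and Hdac9 (0.521 ± 0.228), which overlap each other, came last. The order on this scale therefore put 1 MEF2 factor at the top and another near the bottom, and spread the deacetylases from the third to the last place. It depends on the length used, which merges the exons of all annotated transcripts (14.681 kb for Mef2a and 5.985 kb for Mef2d). Before that division the medians were 90.9 CPM for Mef2a and 105 CPM for Mef2d. Which exons these hearts use was not examined.

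Across the 24 hearts Hdac5 varied least, with a CV of 12.1% and a range of 1.78-fold between the lowest and highest library, and Hdac9 varied most, with a CV of 43.8% and a range of 4.38-fold. Hdac9 values did not spread evenly, since 7 libraries, each scaled within its table, lay between 3.06 and 3.88 CPM and the other 17 between 5.64 and 13.6, a gap found after the values were seen. The 7 low libraries came from 5 of the 6 heart groups, each of which also held libraries above the gap. Myocd, the muscle-specific coactivator, and Srf were lowest at 1 month. Myocd was 9.67 ± 1.28 CPM in Ctrl_1mo, 21.1 ± 4.02 in Ctrl_3mo and 14.9 ± 1.91 in Ctrl_TAC on the common scale, and Srf was 28.3 ± 5.62, 46.2 ± 12.5 and 39.8 ± 3.70. Age, operation and the table cannot be told apart in this order, and it was not tested.

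**Figure D1:**
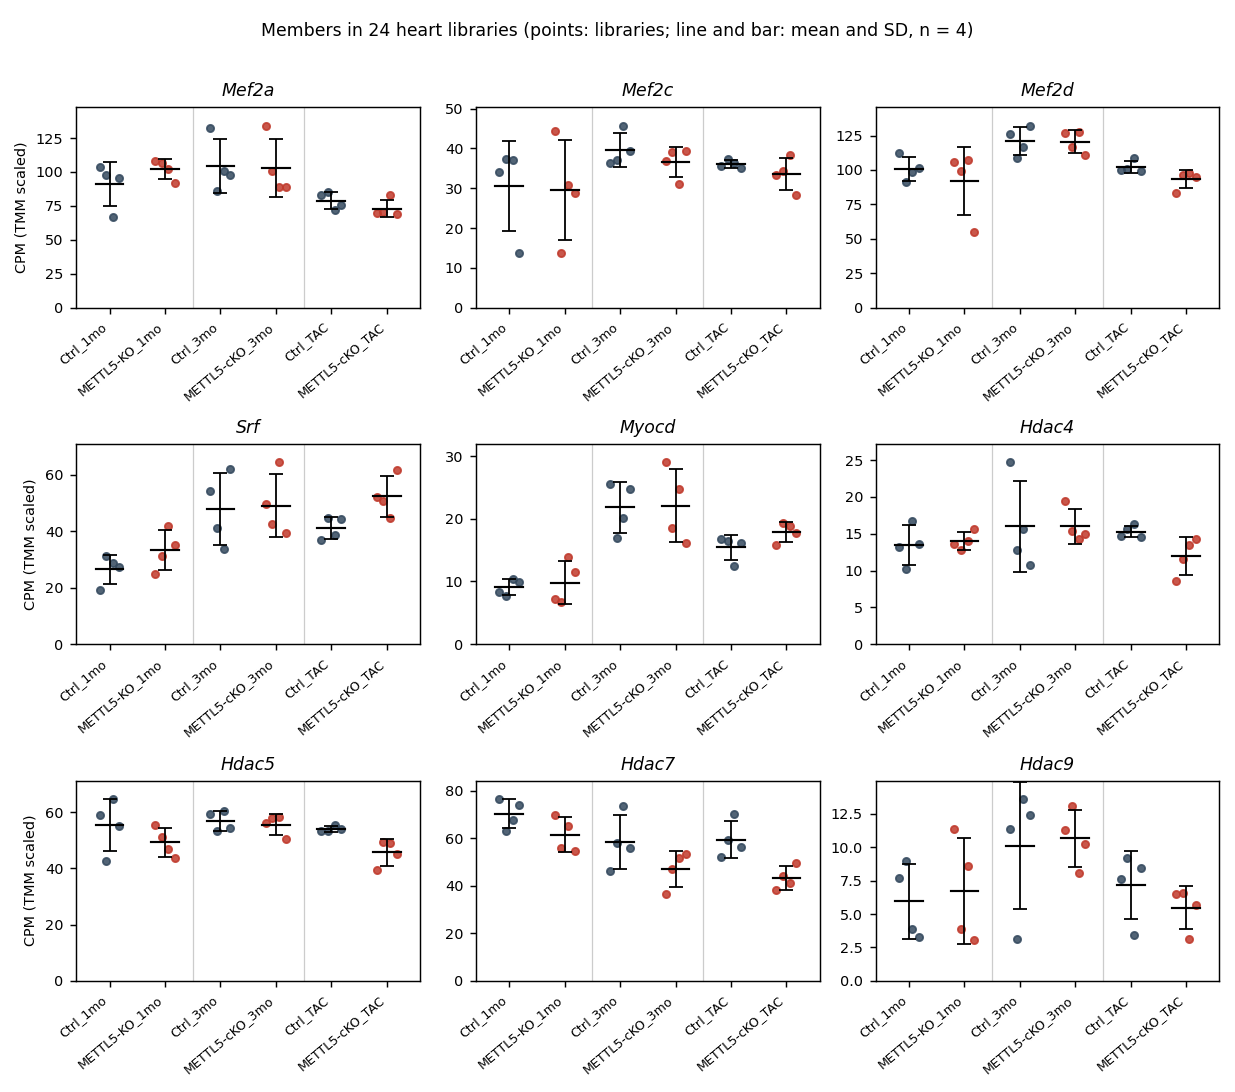
CPM of each of the 9 genes (y axis) in the 24 heart libraries by group (x axis). Points are libraries (dark for Ctrl, red for METTL5-KO or METTL5-cKO), lines and bars the mean and SD of 4 libraries. Groups overlap for every gene at 1 and 3 months, and after TAC Srf lies higher and Mef2d, Hdac4, Hdac5 and Hdac7 lie lower in METTL5-cKO_TAC with no overlap.

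At 1 month, the comparison asked whether hearts labelled METTL5-KO differ in early life, and none of the 9 genes did so detectably. No member was called by edgeR or by DESeq2, no member had an unadjusted p under 0.05, and for none did the groups part, where 0.00612% of all 16329 genes tested were called and 3.01% had groups that do not overlap. Srf had the smallest p, with 19.2, 31.2, 28.6 and 27.2 CPM in Ctrl_1mo and 25, 31.2, 41.8 and 35.1 in METTL5-KO_1mo. The Srf groups overlap, and the log2 fold change was 0.33 (SE 0.19, adjusted p = 0.973). Hdac7 came second with a log2 fold change of -0.20 (SE 0.12, adjusted p = 0.973). The widest interval was that of Hdac9, from -0.95 to 1.29, so it does not exclude sizeable changes in either direction, whereas that of Hdac7 ran from -0.48 to 0.09.

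Mef2c and Mef2d each had an odd library at 1 month. Mef2c, a MEF2 factor needed for the early heart, was 34.1, 37.4, 37.1 and 13.7 CPM in Ctrl_1mo and 44.5, 13.8, 30.8 and 28.8 in METTL5-KO_1mo. A single library in each group lay far below the others, so the low value did not follow the label. Mef2d, which the adult heart uses in stress responses, was 106, 99.1, 107 and 55.2 CPM in METTL5-KO_1mo against 90.9 to 112 in Ctrl_1mo. The log2 fold changes were -0.05 (SE 0.38) for Mef2c and -0.13 (SE 0.20) for Mef2d, and without METTL5-KO_1mo 4 that of Mef2d was 0.05.

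At 3 months, in hearts without operation, again no member was called by edgeR or DESeq2, none had an unadjusted p under 0.05 and no groups parted. Of all 16391 genes tested, 0.0732% were called and 4.23% had groups that do not overlap. The MEF2 factors were nearly level, with Mef2a at 103 ± 21.5 CPM in METTL5-cKO_3mo and 104 ± 19.8 in Ctrl_3mo, Mef2c at 36.6 ± 3.84 and 39.7 ± 4.25, and Mef2d at 120.4 ± 8.31 and 121 ± 10.4. The 95% interval of the log2 fold change was narrow for Mef2d (-0.23 to 0.22) and for Hdac5 (-0.24 to 0.17) and wide for Hdac9 (-0.81 to 0.96) and Hdac4 (-0.58 to 0.58). Hdac4 in Ctrl_3mo ran from 10.7 to 24.7 CPM. Hdac7 had the smallest p, with 46.0, 57.8, 73.3 and 55.9 CPM in Ctrl_3mo and 36.3, 46.9, 51.4 and 53.4 in METTL5-cKO_3mo. These groups overlap, and the log2 fold change of -0.31 (SE 0.16, adjusted p = 0.778) did not pass.

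After TAC, the comparison asked how hearts labelled METTL5-cKO differ under pressure overload, and 1 of the 9 genes was called: Hdac7, which was lower. All 4 class IIa deacetylases had a mean below that of Ctrl_TAC, Srf and Myocd had a mean above it, and the 3 MEF2 factors lay slightly below. Of all 16340 genes tested 12.7% were called and 18.6% had groups that do not overlap. Beside these, 1 of 9 members was called and 5 of 9 (Mef2d, Srf, Hdac4, Hdac5 and Hdac7) had groups that do not overlap. The members' median log2 fold change was -0.13 against 0.00 over all genes.

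Hdac7, the class IIa deacetylase best known from blood vessel endothelium and thymus, was 52.1, 59.0, 69.98 and 56.3 CPM in Ctrl_TAC and 38.1, 44.0, 41.1 and 49.7 in METTL5-cKO_TAC. Every METTL5-cKO_TAC library lay below every Ctrl_TAC library. The log2 fold change was -0.46 (SE 0.11, 95% interval -0.73 to -0.18, adjusted p = 0.0315), a fall from 59.4 ± 7.64 to 43.2 ± 4.97 CPM, and the exact two-sided permutation test over the 70 labelings gave p = 0.0286, the smallest it can give with 4 against 4. In 6 of the 8 fits that leave out 1 library the call was lost: adjusted p was 0.0778, 0.0686 and 0.0772 without Ctrl_TAC 2, 3 and 4 and 0.0801, 0.0837 and 0.0750 without METTL5-cKO_TAC 1, 2 and 3, while it was 0.0359 without Ctrl_TAC 1 and 0.0102 without METTL5-cKO_TAC 4. With no filter on low counts it was 0.0675.

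Markers of blood vessel endothelium moved with Hdac7. Of the 8 endothelial markers (Pecam1, Cdh5, Tie1, Kdr, Egfl7, Emcn, Cldn5 and Erg), 4 were lower and 0 higher after TAC (Kdr by -0.70, Tie1 by -0.60, Cdh5 by -0.49 and Pecam1 by -0.41 on the log2 scale), none was at 0, and their sum ran from 675 to 811 CPM in Ctrl_TAC and from 461 to 612 in METTL5-cKO_TAC. That is 50% of the list called, where 12.7% of all genes were called and 6.10% were called lower. The log2 ratio of the Hdac7 count to that sum within a library was -3.62 ± 0.0718 in Ctrl_TAC and -3.58 ± 0.0664 in METTL5-cKO_TAC, a difference of 0.04 (exact permutation p = 0.400, adjusted p = 0.898 over the 44 ratio comparisons made), a comparison chosen after the data were seen. The same ratio differed by 0.14 at 3 months (p = 0.286) and by 0.00 at 1 month (p = 1) in exact permutation tests. In the NRVMs, where the list lacks Pecam1, it was lower by more than the spread, at 0.84 ± 0.168 in AdGFP and 0.16 ± 0.264 in AdMETTL5, a difference of -0.68 with no overlap (exact permutation p = 0.0286, adjusted p = 0.180). In whole hearts fewer cells of a type and less RNA per cell cannot be told apart, and the part of the endothelial markers in the Hdac7 result was not tested. At 3 months the median of the endothelial list was also below 0, at -0.42, and those of the fibroblast (0.51) and macrophage (0.39) lists were above it. None of the 44 tested marker genes of any cell type was called by edgeR at 3 months. Of these 44, 20 had an unadjusted p under 0.05, beside 1155 of all 16391 genes tested.

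**Figure D2:**
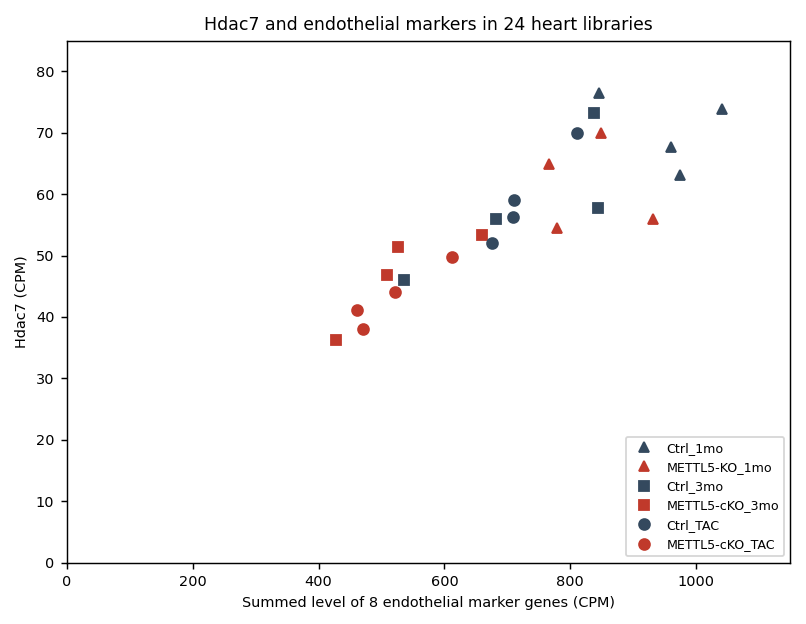
Hdac7 in CPM (y axis) against the summed CPM of 8 endothelial marker genes (x axis) in the 24 heart libraries, with triangles for 1 month, squares for 3 months and circles for TAC, dark for Ctrl and red for METTL5-KO or METTL5-cKO. The METTL5-cKO_TAC libraries lie at 461 to 612 CPM of markers and 38.1 to 49.7 CPM of Hdac7, the Ctrl_TAC libraries at 675 to 811 and 52.1 to 69.98.

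Hdac5, a deacetylase that restrains growth of heart muscle, was 53.3, 53.3, 55.5 and 54.0 CPM in Ctrl_TAC and 39.4, 49.3, 49.1 and 45.0 in METTL5-cKO_TAC. The groups do not overlap, and the log2 fold change of -0.24 (SE 0.08, adjusted p = 0.0830) did not pass over all genes. Hdac4, a target of the calcium-dependent kinase CaMKII, was 14.7, 15.6, 16.3 and 14.6 CPM in Ctrl_TAC and 8.55, 11.6, 13.5 and 14.3 in METTL5-cKO_TAC. These groups part as well, by a small margin at the top, and the log2 fold change was -0.35 (SE 0.14, adjusted p = 0.129). Hdac9 had 1 low library on each side, with 7.59, 9.19, 3.43 and 8.44 CPM in Ctrl_TAC and 6.53, 6.61, 3.15 and 5.64 in METTL5-cKO_TAC, and a log2 fold change of -0.39 (SE 0.31, adjusted p = 0.425). Between the family members the log2 ratio of Hdac5 to Hdac4 differed by 0.13 between the groups and that of Hdac7 to Hdac5 by -0.21, with overlapping groups in both.

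Srf was 36.9, 44.6, 38.8 and 44.2 CPM in Ctrl_TAC and 52.2, 50.5, 44.7 and 61.8 in METTL5-cKO_TAC. The lowest METTL5-cKO_TAC library lay just above the highest Ctrl_TAC library. The log2 fold change was 0.35 (SE 0.11, 95% interval 0.08 to 0.61) with adjusted p = 0.0670 in edgeR, and the DESeq2 test gave 0.36 with adjusted p = 0.0182, so the call depended on the tool. Without TMM, using library totals only, the median log2 fold change of all genes moved from 0.00 to 0.14, and Srf was at 0.48 with adjusted p = 0.0134 and Hdac7 at -0.32 with adjusted p = 0.0766. Under that scaling 79.7% of the calls were higher, against 51.9% with TMM scaling. Myocd was 16.8, 16.4, 12.5 and 16.1 CPM in Ctrl_TAC and 15.8, 19.3, 18.9 and 17.7 in METTL5-cKO_TAC, with overlapping groups and a log2 fold change of 0.21 (SE 0.11, adjusted p = 0.223).

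Among the MEF2 factors after TAC, Mef2d was 100.1, 100.6, 109 and 99.2 CPM in Ctrl_TAC and 83.5, 96.1, 97.9 and 94.96 in METTL5-cKO_TAC. The groups part by a narrow margin, and the log2 fold change of -0.13 (SE 0.07, adjusted p = 0.251) did not pass. Mef2a, a MEF2 factor of the adult heart with roles in its energy metabolism, was 78.8 ± 6.19 CPM in Ctrl_TAC and 73.0 ± 6.47 in METTL5-cKO_TAC. Mef2c was 36.1 ± 1.06 and 33.6 ± 4.12 in the same groups. Both overlap between groups. The log2 ratio of Mef2c to Mef2a differed by 0.00 between the groups, that of Mef2d to Mef2a by -0.03 and that of Mef2d to Mef2c by -0.02, all with overlapping groups. With library totals only the signs of Mef2a (0.04), Mef2c (0.05) and Mef2d (0.01) turned, and none of these was called.

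Whether the genotype effect differed between operated and unoperated hearts was tested in 1 model over the 16 libraries of both tables. No member passed in edgeR or in DESeq2, none had an unadjusted p under 0.05, and 0.00586% of all 17070 genes tested did pass. The largest difference among the members was that of Hdac9, at -0.44 (95% interval -1.58 to 0.70), followed by Hdac4 at -0.34 (-0.99 to 0.31) and Srf at 0.32 (-0.24 to 0.88). For Hdac7, the gene called after TAC, the difference was -0.13 (-0.58 to 0.31, adjusted p = 0.862), so the data do not show that its effect after TAC differed from that at 3 months. The intervals of Mef2c (-0.28 to 0.34) and Mef2d (-0.37 to 0.14) were the narrowest of the MEF2 factors.

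**Figure D3:**
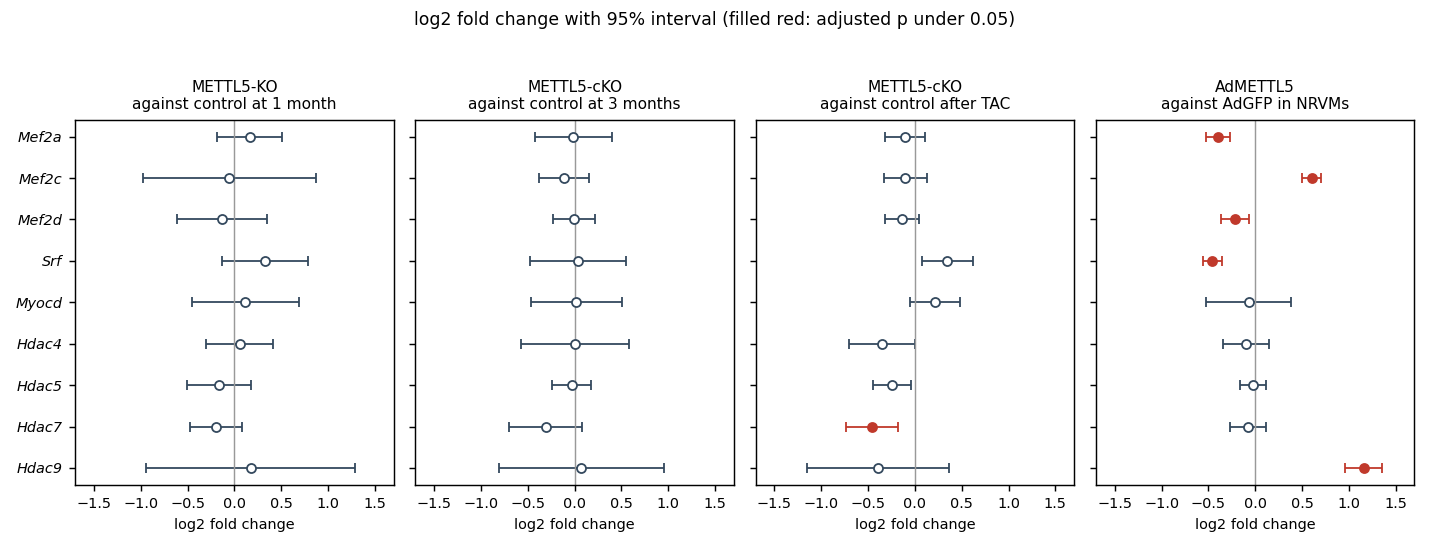
log2 fold change (x axis) of each gene (y axis) in the 4 comparisons, with 95% intervals and filled red points for adjusted p under 0.05. The widest interval is that of Hdac9 at 1 month, from -0.95 to 1.29, the only filled point in the hearts is Hdac7 after TAC at -0.46, and in the NRVMs Hdac9 at 1.16 and Mef2c at 0.60 lie above 0 while Mef2a, Mef2d and Srf lie below it.

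In the NRVMs the comparison asked what added METTL5 does in PE-treated myocytes. The MEF2 factors went different ways, and of the class IIa deacetylases only Hdac9 was called. Mef2c and Hdac9 were higher with AdMETTL5, Mef2a, Mef2d and Srf were lower, and Myocd, Hdac4, Hdac5 and Hdac7 were not called. That is 5 of 9 members, where 52.8% of all 15041 genes tested were called, and 4 of 9 with groups that do not overlap, where 48.4% of all genes had such groups, so the count itself is near that of all genes. Hdac9 alone passed a 2-fold change, and its p ranked 286 among all genes. Markers of heart muscle moved at the same time, since all 8 of the 8 tested cardiomyocyte markers were lower and their sum ran from 15412 to 17752 CPM in AdGFP and from 7273 to 8078 in AdMETTL5. Of 7 fibroblast markers 6 were lower and 0 higher (sum 11531 to 12144 against 9112 to 10042 CPM). For macrophages 3 of 5 and for skeletal muscle 5 of 7 markers were lower, with 0 higher. Not all lists fell, since of 8 smooth muscle and pericyte markers 2 were higher and 2 lower. Of 5 tested endothelial markers 1 was higher and 0 lower. The part of these markers, and of the lower depth of the AdMETTL5 libraries, in the results below was not tested.

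Mef2c was 77.2, 73.4, 72.1 and 73.8 CPM in AdGFP and 112, 109.7, 116 and 113 in AdMETTL5. The spread within either group was small beside the distance between them, with a log2 fold change of 0.60 (SE 0.04, adjusted p = 3.4e-07). Mef2a was 226, 251, 251 and 259 CPM in AdGFP and 181, 182, 196 and 189 in AdMETTL5. It moved the other way, with no overlap and a log2 fold change of -0.40 (SE 0.05, adjusted p = 4.7e-05). Mef2d was 95.1, 112, 101 and 116 CPM in AdGFP and 95.5, 91.0, 90.1 and 88.9 in AdMETTL5. Here the groups touch, since the highest AdMETTL5 library lies above the lowest AdGFP library, and the log2 fold change of -0.21 (SE 0.06, adjusted p = 0.0115) passed in edgeR while the exact permutation test gave p = 0.0571.

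The proportions of the MEF2 factors within each library, a measure that no scaling alters and that was chosen after the data were seen, also differed between the groups. The log2 ratio of Mef2c to Mef2a counts was -1.73 ± 0.125 in AdGFP and -0.73 ± 0.0327 in AdMETTL5, a difference of 1.00 with no overlap. The log2 ratio of Mef2d to Mef2c counts ran from 0.30 to 0.65 in AdGFP and from -0.36 to -0.23 in AdMETTL5, also with no overlap. Both differences had an exact permutation p of 0.0286, the smallest possible, and an adjusted p of 0.180 over the 44 ratio comparisons made. These counts were not divided by gene length, so the sign of a ratio does not say which gene had more transcripts. In the hearts none of the ratios between MEF2 factors had groups that do not overlap.

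**Figure D4:**
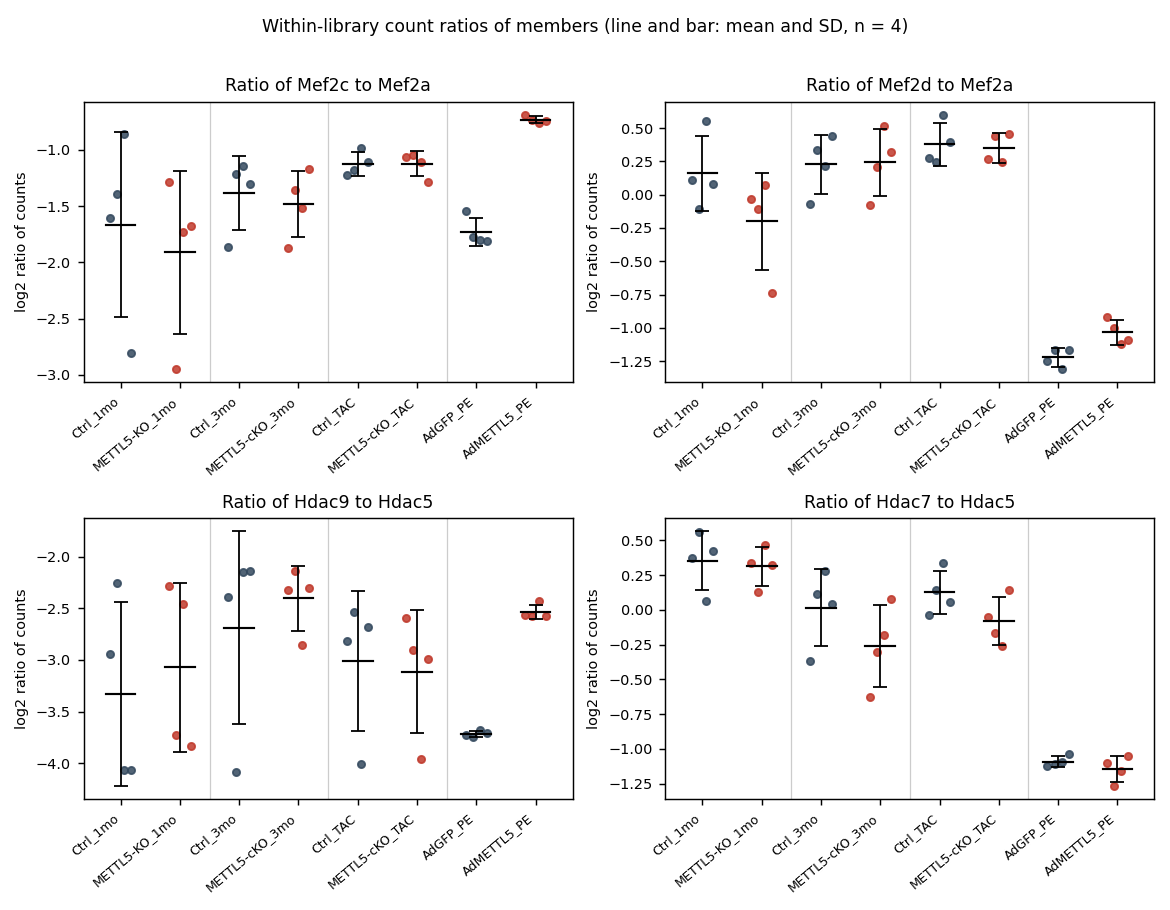
log2 ratio of the counts of 2 members within a library (y axis) in all 8 groups (x axis). Points are libraries, lines and bars mean and SD of 4 libraries. The ratios of Mef2c to Mef2a and of Hdac9 to Hdac5 part between AdGFP_PE and AdMETTL5_PE, by 1.00 and 1.18, the ratio of Mef2d to Mef2a by 0.19, and that of Hdac7 to Hdac5 overlaps there. All 4 ratios overlap in each pair of heart groups.

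Hdac9, whose gene is itself a known MEF2 target, was 8.07, 7.82, 9.22 and 9.07 CPM in AdGFP and 18.1, 18.2, 20.1 and 19.8 in AdMETTL5. The lowest AdMETTL5 library stood well clear of the highest AdGFP library. The log2 fold change was 1.16 (SE 0.08, 95% interval 0.96 to 1.35, adjusted p = 2.8e-07), 2.23 times the AdGFP mean. The other deacetylases stayed within the spread of their libraries. Hdac5 was 112 ± 7.25 CPM in AdGFP and 110.5 ± 5.25 in AdMETTL5 with a 95% interval of the log2 fold change of -0.16 to 0.11. Hdac4 was 10.4 ± 1.26 and 9.73 ± 0.723 (interval -0.34 to 0.15) and Hdac7 52.8 ± 4.58 and 50.1 ± 5.04 (interval -0.27 to 0.12). The log2 ratio of Hdac9 to Hdac5 went from -3.72 ± 0.0280 to -2.54 ± 0.0712. In the NRVMs, unlike the hearts, Hdac7 stood beside low endothelial markers, with sums of 28.5 to 30.4 CPM in AdGFP and 39.7 to 48.2 in AdMETTL5.

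Srf was 232, 231, 223 and 236 CPM in AdGFP and 172, 171, 164 and 163 in AdMETTL5. The groups are far apart relative to their SDs of 5.41 and 4.66, and the log2 fold change was -0.46 (SE 0.04, adjusted p = 2.5e-06). Myocd was 47.3, 92.1, 74.4 and 86.5 CPM in AdGFP and 75.6, 51.2, 83.7 and 75.2 in AdMETTL5. It had the widest spread of the 9 genes in these cells. Its log2 fold change of -0.07 has an interval of -0.52 to 0.38, and a change of the size seen for Srf lies within it. With library totals only, the median log2 fold change of all genes moved from 0.00 to 0.13 and the share of higher calls from 51.4% to 71.5%. Under it Mef2c, Hdac9, Mef2a and Srf remained called in the same direction, and Mef2d, at -0.08 with adjusted p = 0.325, did not. The signs of Myocd (0.06), Hdac4 (0.04), Hdac5 (0.11) and Hdac7 (0.06), none of them called, turned under that scaling.

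**Figure D5:**
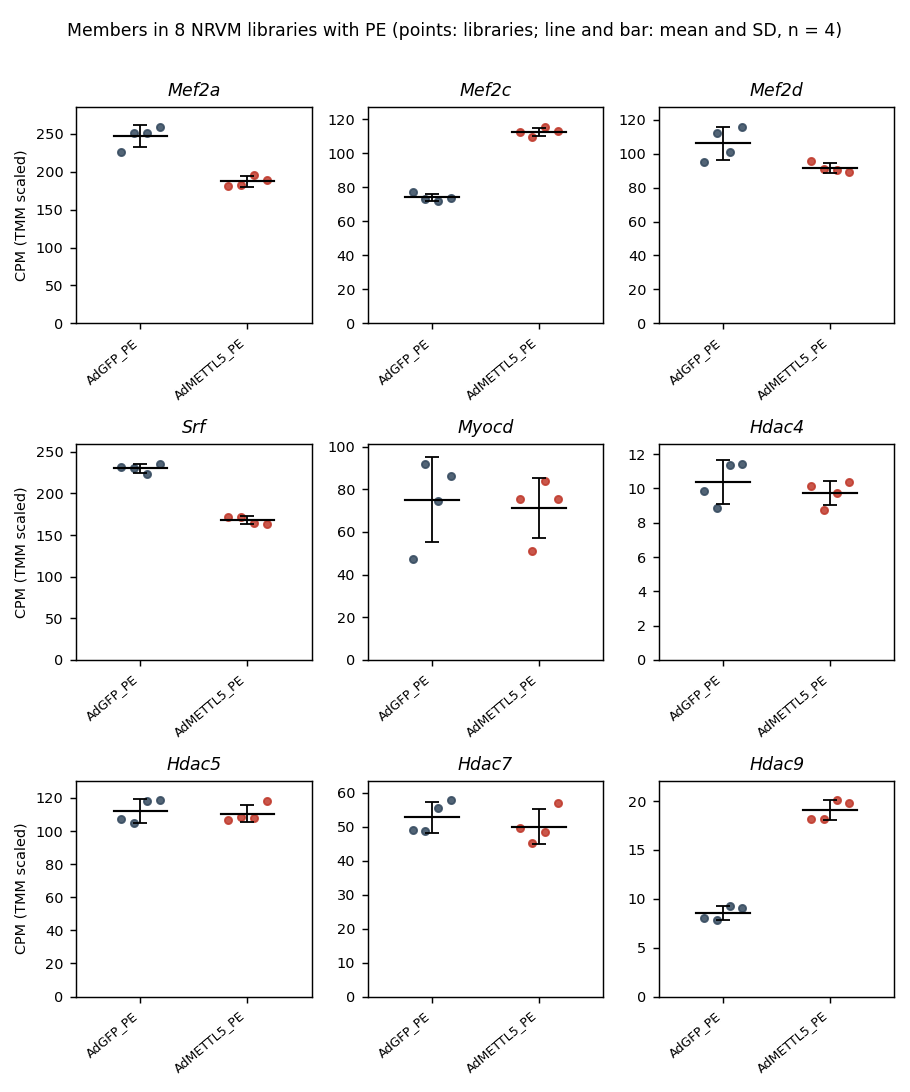
CPM of each of the 9 genes (y axis) in the 8 NRVM libraries by group (x axis). Points are libraries (dark for AdGFP_PE, red for AdMETTL5_PE), lines and bars mean and SD of 4 libraries. Mef2c and Hdac9 lie higher and Mef2a and Srf lower in AdMETTL5_PE with no overlap, Mef2d overlaps by 1 library, and the other 4 genes overlap.

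The genes around these factors were read from lists chosen with earlier results of these data known. None of their 146 tested genes was called in edgeR at 1 month or at 3 months. At 1 month 9 of them had an unadjusted p under 0.05, beside 747 of all 16329 genes tested. At 3 months 20 of them had, beside 1155 of all 16391 genes tested. Upstream, a list held kinases linked to class IIa deacetylases, 14-3-3 proteins and the phosphatase gene Ppp2ca. Of its 27 tested genes, 1 was higher and 2 were lower after TAC, or 11.1% against 12.7% of all genes. Sik1, a salt-inducible kinase that phosphorylates class IIa deacetylases, rose from 15.98 ± 2.04 to 27.5 ± 7.28 CPM, and Prkd1, protein kinase D, fell from 5.45 ± 0.730 to 3.01 ± 0.552. In the NRVMs 10 were higher and 5 lower, or 55.6% against 52.8% of all genes, so both counts are near those of all genes. Prkaa1 (0.70) and Camk2d (0.45), the main cardiac CaMKII gene, had the smallest p of those that rose on the log2 scale, and Prkaca (-0.46) and Prkaa2 (-0.41) of those that fell, so the 2 genes for the catalytic subunit of AMP kinase moved in opposite directions.

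A further list held corepressor partners of these deacetylases together with the histone deacetylases outside class IIa. Of its genes 1 of 20 was higher and 0 lower after TAC (Ankra2, 0.33), or 5% beside 12.7% of all genes. In the NRVMs 4 of 19 were higher and 7 lower, or 57.9% beside 52.8% of all genes. Bcl6 (0.78) and Cbx5 (0.56) rose there, and Hdac3 (-0.35), the enzyme that gives class IIa complexes most of their catalytic activity, and Dnajb5 (-0.35) fell. Of 18 MEF2 partners and coactivators, Hand2 was the 1 called after TAC (5.56% of the list, beside 12.7% of all genes), where it rose by 0.66. In the NRVMs 5 were higher and 5 lower, or 55.6%, again near the 52.8% of all genes, with Hand2 (0.70) and Crebbp (0.66) up and the cardiac factor Nkx2-5 (-0.58) down on the log2 scale, and Gata4, another, down from 590 ± 37.9 to 296 ± 12.6 CPM. SRF cofactors and partners split 3 higher and 1 lower of 27 after TAC (14.8%, with 12.7% of all genes), with Csrp2 (0.89) and Fhl1 (1.01) up and Ets1 (-0.50) down. In the NRVMs they split 7 higher and 9 lower of 26 (61.5%, with 52.8% of all genes), with Klf4 (0.56) and Csrp2 (0.38) up and Csrp3 (-1.77) and Smarcd3 (-0.68) down.

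Downstream, of 24 tested MEF2 target genes that are not themselves members, 6 were higher and 4 lower after TAC, where 6.57% of all genes were higher and 6.10% lower. The muscle structure genes Xirp2 (1.98) and Des (1.01) rose, and Hrc (-0.90), a calcium-binding protein of the sarcoplasmic reticulum, and Myl2 (-0.75) fell. Of 34 SRF target genes other than Srf, 10 were higher and 4 lower. With members included, 35.7% of the MEF2 target list and 40% of the SRF target list were called, against 12.7% of all genes. Nppa, the atrial natriuretic peptide gene, rose from 436 ± 100.1 to 4888 ± 1804 CPM and Acta1, skeletal α-actin, from 1076 ± 242 to 3305 ± 336, while Itga1 (-0.37) and Kcnmb1 (-0.68) fell. The median log2 fold change over the lists with their members was -0.05 for MEF2 targets and 0.14 for SRF targets, against 0.00 for all genes. Of 8 fibroblast markers 7 were higher and 0 lower in the same hearts, with sums of 578 to 767 CPM in Ctrl_TAC and 924 to 2987 in METTL5-cKO_TAC, and 2 of 8 tested cardiomyocyte markers were lower (28651 to 32758 against 21835 to 27323 CPM), with the atrial myosin gene Myl7 at 0 in all 8 libraries. Of 8 macrophage markers 3 were higher (228 to 297 against 308 to 395 CPM), and of 8 smooth muscle and pericyte markers 2 were lower (585 to 633 against 457 to 586 CPM). The SRF target list shares Acta2, Cnn1, Myh11, Mylk and Tagln with the smooth muscle list. The part of these markers in the list counts was not tested.

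In the NRVMs 3 of 22 MEF2 targets were higher and 17 lower, and 5 of 34 SRF targets were higher and 18 lower, where 27.1% of all genes were higher and 25.7% lower, with list medians of -0.53 and -0.23 beside 0.00 for all genes. The contractile genes Myl2 (-2.34) and Myh6 (-1.53) fell among the MEF2 targets, and Slc2a4 (0.89), the insulin-responsive glucose transporter, and Nr4a1 (0.31) rose. Among the SRF targets Actc1, cardiac α-actin, fell from 18384 ± 3198 to 6566 ± 383 CPM and the immediate-early gene Egr1 from 140 ± 11.4 to 53.1 ± 5.52, while the nonmuscle actins Actg1 (0.29) and Actb (0.23) rose. The MEF2 target list holds the cardiomyocyte markers Myh6 and Actn2, so its count shares genes with the marker count given above. The SRF target list holds none of the cardiomyocyte markers used, but it shares Acta1 with the skeletal muscle list. Ckm is on the MEF2 target and skeletal muscle lists, and Actc1 is on both target lists, so these counts are not independent of each other.

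The genes most like each member over the 24 heart libraries, by Pearson r of log2 CPM after centring each table, are given as a description over 15542 genes, and the libraries of a table share their age. The groups of a table were not centred apart, so a difference between them enters r. Hdac7 was most like AU020206 (r = 0.923), Card10 (0.921) and Ccm2l (0.917). Srf was most like Mllt1 (r = 0.918) and the processed Pgam1 copies Pgam1-ps1 and Pgam1-ps2, whose reads may be shared with Pgam1. Mef2d was closest to St6galnac6 (r = 0.912), Znrd1as and Thap12, Mef2a to Gpbp1l1 (0.854), Chrm2 and Ncoa2, and Myocd to Kif1c (0.862), Nomo1 and Rnf10. The best r was lower for Hdac4 (Btbd11, 0.774), Mef2c (Dus2, 0.733) and Hdac9 (Srebf1, 0.688). None of the nearest 3 genes of any member was another member.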

How the data were processed

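The authors aligned BGIseq reads with HISAT2 2.0.4 to GRCm38 or Rnor_6.0 and counted genes with StringTie 2.1.4, as the submitters' processing notes list them, and deposited estimated counts, all whole numbers, so rounding changed nothing. The test had been planned for plain counts and was kept. At 1 month columns were matched to single samples, and in the other tables to groups, so replicate numbers there are names only. Each table was fitted alone with edgeR 4.0.16 in R 4.3.3: filterByExpr with a minimum count of 10 and total of 15, TMM scaling, the quasi-likelihood test and Benjamini-Hochberg adjustment. DESeq2 1.42 was an alternative. SE is the log2 fold change over the root of F, and 95% intervals use a t distribution with 6 degrees of freedom, or 12 for the model over 2 tables. Exact two-sided permutation tests used log2 CPM with a prior count of 2. Exon lengths are merged exons of GENCODE vM21. The fit was tested on simulated data. Members and gene lists were chosen with earlier results of these data known. Named list genes are, per comparison, up to 2 higher and 2 lower with the smallest adjusted p among those called whose groups do not overlap, and the endothelial markers named beside Hdac7 were added after their values were seen. At 1 month same-numbered libraries of the groups did not all deviate together (r from -0.11 to 0.24), so no pairing was used. The genes most like Hdac5 are not reported here.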

Additional observations from a re-analysis of the deposited data

Results flagged for a closer look

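Of 72 sets of 4 values (9 genes in 8 groups), 6 held a library whose gap to its nearest neighbour passed Dixon's 95% critical value as a share of the whole range of the group, and chance flags about 1 in 20 sets. At 1 month Mef2c was 13.7 CPM in Ctrl_1mo 4 against 34.1 to 37.4 in the other libraries of the group, and Mef2d was 55.2 CPM in METTL5-KO_1mo 4 against 99.1 to 107. After TAC Mef2a was 82.7 CPM in METTL5-cKO_TAC 3 against 69.2 to 70.6. In Ctrl_TAC 3, Mef2d was 109 CPM against 99.2 to 101 and Myocd was 12.5 CPM against 16.1 to 16.8, so this library held 2 of the 6 values. In the NRVMs Hdac5 was 118 CPM in AdMETTL5_PE 4 against 107 to 109. None of these 6 sets belongs to a member called in its comparison.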

How the results depend on the processing

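Of 702 recomputed values of the 9 genes, 634 kept their direction and side of the threshold, 10 lost a call, 6 gained one and 52 turned sign, none of the last in a called value (lowest adjusted p among them 0.210). The losses were those of Hdac7 after TAC and of Mef2d in the NRVMs given above. The gains after TAC were Srf (DESeq2, library totals only, exact permutation) and Hdac4, Hdac5 and Mef2d (exact permutation, which is not adjusted). The cause of these shifts was not tested. Counts of members called after TAC were 2 with DESeq2 and 0 with no filter or with a minimum log2 fold change of 1, and between 0 and 1 without 1 library. In the NRVMs that minimum left 1 member and 880 of all genes. Counts of all genes called were 13 with DESeq2, 0 with library totals only and 0 to 2 without 1 library at 1 month. At 3 months they were 108 with DESeq2, 1 with no filter and 2 to 9 without 1 library. After TAC they were 1052 with no filter, 474 with the minimum and, without 1 library, between 479 (Ctrl_TAC 4) and 3899 (METTL5-cKO_TAC 4), and each library except Ctrl_TAC 1 moved this count by over 1.5 times.

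Signs turned with library totals only for Mef2a (0.036), Mef2d (0.045) and Hdac5 (0.021) at 3 months, for Mef2a (0.043), Mef2c (0.053) and Mef2d (0.013) after TAC, for Myocd (0.065), Hdac4 (0.040), Hdac5 (0.11) and Hdac7 (0.058) in the NRVMs, and for Mef2a (0.0070) in the difference between TAC and 3 months. The mean difference of log2 CPM for Myocd at 3 months was -0.0014. Leaving out 1 library turned further uncalled signs. At 1 month the log2 fold change ran from -0.32 to 0.18 for Mef2c, from -0.22 to 0.048 for Mef2d, from -0.096 to 0.26 for Myocd, from -0.051 to 0.18 for Hdac4 and from -0.20 to 0.44 for Hdac9. At 3 months it ran from -0.17 to 0.12 for Mef2a, from -0.055 to 0.040 for Mef2d, from -0.13 to 0.19 for Srf, from -0.15 to 0.14 for Myocd, from -0.15 to 0.29 for Hdac4, from -0.061 to 0.012 for Hdac5 and from -0.22 to 0.25 for Hdac9. In the NRVMs it ran from -0.24 to 0.059 for Myocd and from -0.058 to 0.0037 for Hdac5, and the difference between TAC and 3 months from -0.22 to 0.075 for Mef2a and from -0.045 to 0.092 for Mef2c.

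At 1 month a replicate block on the label numbers gave 0 members and 1 gene of all called, as without it. Same-numbered libraries correlated at 0.24, 0.12, -0.11 and 0.08, so the numbers were not read as pairs. The other tables carry no replicate numbers tied to samples. Hdac9 had between 63 and 289 counts in a heart library, and the lower depth of every AdMETTL5 library cannot be told apart from the group.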
